A study of Mus musculus with 3 samples.

Results

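Cluster 3 of the naive mouse brain, a group of cells labelled here as monocyte-derived, was described against the microglia (cluster 0) and the nonclassical monocytes (cluster 4) of the same matrix. Its members were all cells that the authors' deposited annotation places in cluster 3 of the naive brain: 111 cells of the sample labelled control and 172 of the sample labelled depleted, 10.7% of the 2653 cells in that matrix. The 3 matrices of the series list 11510 cells. All 5 genes given to mark it, Ly6c2, Ccr2, Ms4a4c, Chil3 and Cd209a, were higher in cluster 3 than in both comparison clusters. It was nevertheless a mixture: sub-clusters led by classical monocyte genes and by dendritic cell genes stood beside others led by neutrophil, microglial and T cell genes. It is therefore called cluster 3 below and is given no single cell type name.

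The study used CITE-seq, which reads the RNA of single cells in droplets together with DNA-barcoded antibodies against surface proteins, on brain and blood myeloid cells of C57Bl/6 mice. Both arms of the naive brain were female mice of 2 to 3 months without metastases, and both carried Cx3cr1CreERT, a tamoxifen-activated Cre recombinase driven from the Cx3cr1 locus. Both were given tamoxifen, left for 1 month, and then given diphtheria toxin. The sample labelled control carried Cx3cr1CreERT alone, and the sample labelled depleted also carried ROSA-iDTR, the Cre-dependent receptor for the toxin. Cx3cr1 is also transcribed by nonclassical monocytes, so the driver is not restricted to microglia, and the labels state that some microglia remained in depleted samples after enrichment. Each arm was 1 hashed sample from 1 brain hemisphere, so no comparison below has a replicate check, no p-value is given, and the intervals cover counting error only.

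Classical monocytes leave the bone marrow by means of the chemokine receptor CCR2, circulate with high surface Ly6C, and in tissues can become macrophages or dendritic cells. Nonclassical monocytes derive largely from them, depend on the nuclear receptor NR4A1 and patrol the vessel wall. Microglia instead arise from embryonic precursors and maintain themselves in the brain; in a healthy brain, monocyte-derived and dendritic cells are found mainly in the meninges, the choroid plexus and the vessels.

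The arm of each cell was read from an antibody hashtag, and its surface class from antibodies to proteins such as CD11b, Ly6C and Ly6G. The barcodes below are shown because every statement on an arm or a surface class depends on telling such short sequences apart; no part of them is singled out, so all are in lower case.
M-HTO-1, control: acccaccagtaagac
M-HTO-4, depleted: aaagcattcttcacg
CD11b: tgaaggctcatttgt
Ly6C: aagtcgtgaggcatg
Ly6G: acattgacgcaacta
The hashtags of both arms differed at 13 of their 15 bases, and no pair among the 8 hashtags differed at fewer than 7. All cells of cluster 3 were classed as hashtag singlets by the authors' annotation, and no doublet caller was run on them here.

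Cells of cluster 3 were deep and often listed more than once. Their median was 24399 raw UMIs per cell (range 3699 to 121676), against 14083 in microglia and 5952 in nonclassical monocytes. Of all its cells, 176 had a barcode also listed in the blood matrix or the matrix of brain with metastases, 62.2% (Clopper-Pearson 95% interval 56.3 to 67.9%), against 25.2% in all other clusters. All 66 cells listed in the blood had the same raw UMI total there, so the same droplet stands in both matrices, and 35 of these 66 were given a T cell surface class in the blood. These 176 cells are called shared droplets below, and the main results are given with and without them. The median hashtag total in cluster 3 was 63 counts in cells labelled control and 1132 in cells labelled depleted.

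The transgenes were read to check the labels. DTR, the row of the toxin receptor, was found in 0 of the 785 cells labelled control, which allows a share of up to 0.382% (the limit given for a count of 0 is 3 cells of the total, not a Clopper-Pearson bound), and in 27 of the 1868 labelled depleted (1.45%). In microglia it was found in 23 of 686 cells labelled depleted (3.35%, interval 2.14 to 4.99%) and in 0 of 134 labelled control, which allows up to 2.24%. In cluster 3 it was found in 2 of 172 cells labelled depleted (1.16%, interval 0.141 to 4.14%), and in 0 of 111 labelled control, which allows up to 2.70%. The T cell-like cluster 1, which should lack it, held it in 2 of 440 cells labelled depleted (0.455%) at a median of 6534 raw UMIs over its cells, so the share in cluster 3 cannot be told from background. Cre was found in both arms of cluster 3, in 4 of 111 and 7 of 172 cells.

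Cx3cr1 itself, the fractalkine receptor whose locus carries the Cre, differed between the arms. Levels are given as CP10k, corrected UMIs per 10000 corrected UMIs summed over the cells of a group. In cluster 3 Cx3cr1 was at 0.873 CP10k in cells labelled control and 1.90 in cells labelled depleted, and at 1.28 and 1.36 without shared droplets. In microglia it was at 1.72 and 10.0 CP10k in the same order. The number of Cx3cr1 alleles that carry the Cre in each genotype is not given in the sources used here. The microglia made up 17.1% of the cells labelled control and 36.7% of those labelled depleted, so their share was higher under the depleted label.

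The markers stood highest in different parts of cluster 3. Ly6c2, a GPI-anchored surface protein read by the Ly6C antibody (GRCm38.p6, chr15:75108161-75112066), was at 7.83 CP10k in cluster 3, 0.608 in microglia and 0.206 in nonclassical monocytes. It is not specific to monocytes, since the T cell-like cluster 1 had 7.20. Ccr2, the receptor that brings monocytes into tissue (chr9:124101918-124109140), was at 5.72, 0.775 and 0.802 CP10k in the same order. Ms4a4c, a tetraspan membrane protein of the Ms4a family (chr19:11404717-11427246), was at 7.79, 0.704 and 0.857. Both exceeded the comparison clusters by more than the 2-fold used below to call a gene.

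Chil3, a chitinase-like secreted protein of classical monocytes and neutrophils (chr3:106147554-106167564), was at 10.1 CP10k in cluster 3, 0.338 in microglia and 0.850 in nonclassical monocytes. Cd209a, a C-type lectin of dendritic cells related to DC-SIGN (chr8:3743395-3748984), was at 2.33, 0.197 and 0.0206. The levels of these last 2 peaked in different sub-clusters. Chil3 was detected in 47.7% of the cells of cluster 3 and Cd209a in 20.1%. Cells that held both were not counted, and in the sub-cluster called E below the shares were 52.6% and 26.3%. After each cell was thinned to 2000 corrected UMIs, a depth that all cells reached, Cd209a was detected in 13.4% of cluster 3, 2.20% of microglia and 0% of the T cell-like cluster, whose unthinned share was 0.200%. Ccr2 was detected in 58.7% of cluster 3, 8.17% of microglia and 12.1% of nonclassical monocytes after thinning, and in 88.7%, 19.5% and 25.3% before it.

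**Figure D1:**
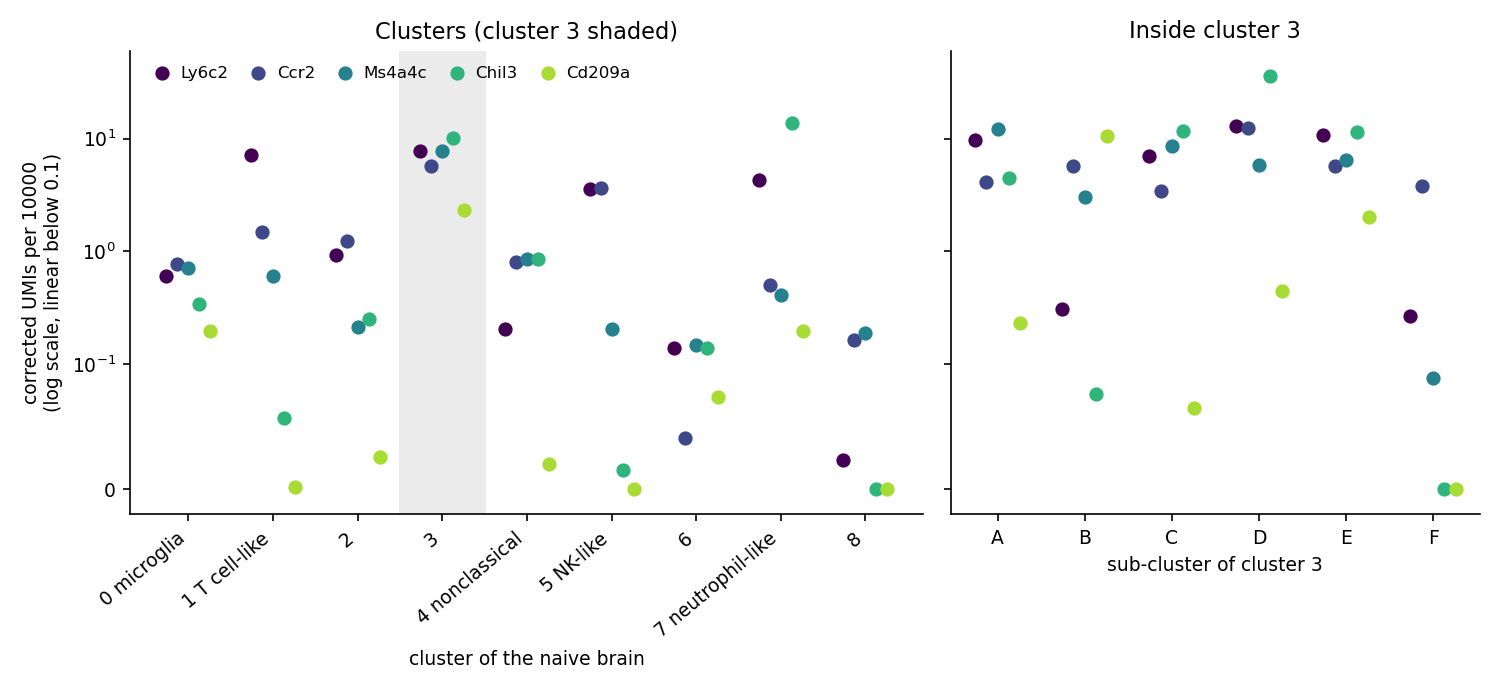
Level of the 5 marker genes in CP10k (vertical axis, log scale that is linear below 0.1) in the clusters of the naive brain, with cluster 3 shaded, and in its sub-clusters A to F; each point is 1 gene in 1 cluster, summed over its cells, with no error bar. Cluster 3 stands above microglia and nonclassical monocytes for all 5 genes, while T cell-like cells reach 7.20 CP10k of Ly6c2 and neutrophil-like cells 13.6 CP10k of Chil3.

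Re-clustering the cells of cluster 3 gave 6 sub-clusters, named A to F by size. They were made from the same genes that describe them, so the levels below are descriptions. A held 95 cells, B 52, C 45, D 42, E 38 and F 11. At least 3 detected markers of a listed type and its own leading genes were needed before a sub-cluster was called by that type. A, C and E reached this for the neutrophil, microglia and T cell lists, but also held Ly6c2 and other classical monocyte genes. They were left unnamed.

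Sub-cluster D was classical monocyte-like. It was led by Chil3, Mgst1 (a microsomal glutathione transferase), Il6, F13a1 (the A chain of clotting factor XIII), Idh1, Hp (haptoglobin) and Fn1 (fibronectin). Chil3 was at 35.6 CP10k in D and at 11.7 or less in each of the others. Ly6c2 was at 12.8 and Ccr2 at 12.5 CP10k, also the highest of the 6. The authors' surface classes placed 33 of its 42 cells (78.6%) in the Ly6C-high class. Shared droplets made up 24 of the 42 (57.1%), and 14 of these were listed in the blood.

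Sub-cluster B was type 2 or monocyte-derived dendritic-like. It was led by the lectins Mgl2 and Cd209a, at 9.58 and 10.6 CP10k, by Clec4b1 (a lectin of dendritic cells, 3.03 CP10k), and by Prg4, Ccl17, Aldh1a2, Ccl22 and Il4i1. Prg4, Ccl17, Aldh1a2, Ccl22 and Il4i1 came mostly from 1 cell labelled control, which held 99.2%, 60.3%, 92.5%, 55.8% and 68.4% of their corrected UMIs in cluster 3. H2-Aa, a chain of the class II molecule that presents peptides to CD4 T cells, was at 122 CP10k, and Cd74, its invariant chain, at 314. Ly6c2 was at 0.305 and Chil3 at 0.0763 CP10k, while Ccr2 was at 5.67 and Ms4a4c at 3.03. Ms4a4c was detected in 40.4% of the cells of B after thinning, against 9.39% of microglia and 14.5% of nonclassical monocytes. Of the 52 cells, 40 (76.9%) were in the Ly6C-low surface class, and 23.1% were shared droplets, the lowest share of the 6.

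Sub-cluster F, of 11 cells, was type 1 dendritic-like. It was led by Xcr1 (a chemokine receptor of cross-presenting dendritic cells, 3.81 CP10k), Clec9a (a receptor for dead cells), Itgae and Mycl. Irf8, a transcription factor these cells need, was at 20.8 CP10k. Chil3 was listed at 0 and Cd209a at 0, and Ly6c2 was at 0.266 CP10k. Of the 5 given markers only Ccr2, at 3.81 CP10k, exceeded 0.5 CP10k in F. Shared droplets made up 5 of its 11 cells (45.5%).

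Sub-cluster A, the largest, held monocyte transcripts and, in part of its cells, neutrophil transcripts. It was led by the calprotectin genes S100a9 (57.1 CP10k against 1.29 in the rest of cluster 3) and S100a8, by Ccl8, Retnlg, Spp1 (osteopontin, 22.2 CP10k), G0s2, Mmp9 and Cxcr2. The neutrophil marker genes together took a median of 0.0381% of a cell's corrected UMIs, an upper quartile of 1.46% and a maximum of 14.5%, against a median of 15.4% in the neutrophil-like cluster. The same sub-cluster had Ly6c2 at 9.74, Ms4a4c at 12.2, the macrophage gene Ms4a7 at 14.7, Cxcl9 at 14.8 and Isg15 at 13.6 CP10k. Its median depth was 46420 raw UMIs and 81.1% of its cells were shared droplets. By surface class A was spread, with 31.6% CNS-native, 21.1% Ly6C+ Ly6G+, 20% Ly6C-high and 13.7% B220+. At resolution 1.0 it divided, with separate groups led by Cxcl9, Acod1, Rsad2 and Cxcl10 (38 cells), by Retnlg, Ngp and S100a9 (30 cells), and by Cbr2, Hmox1, Spp1 and Fabp5 (28 cells).

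Sub-cluster C held microglial and monocyte transcripts in the same droplets. It was led by P2ry12, the ADP receptor of microglial processes (6.49 CP10k, detected in 100% of its cells), Sparc (18.4 CP10k), Gpr34, Olfml3 and Tmem119. The microglial genes took a median of 0.850% of its corrected UMIs, against 1.49% in microglia and at most 0.058% in the other sub-clusters. Ly6c2 was at 7.05 CP10k, against 0.608 in microglia. All 45 cells held at least 5 corrected UMIs of both the classical monocyte list and the microglia list, against 45.9% of cluster 3 as a whole, 19.8% of microglia and 25.3% of nonclassical monocytes. C had a median of 38311 raw UMIs, against 14083 in microglia and 5952 in nonclassical monocytes. The part of depth in these shares was not tested. Of the cells of C, 43 (95.6%) were in the CNS-native surface class and 66.7% were shared droplets. Whether these are single cells of mixed expression or droplets with several cells was not tested.

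Sub-cluster E was led by T cell and NK cell genes, Cxcr6, Cd3d, Cd8b1, Cd3g, Nkg7, Cd8a and Thy1. Cd3d, part of the T cell receptor complex, was at 4.86 CP10k, against 9.69 in the T cell-like cluster. Chil3 was at 11.5 and Ly6c2 at 10.7 CP10k in the same cells, and the classical monocyte list took a median of 0.641% of their corrected UMIs, against 0.0777% in the T cell-like cluster. Of its 38 cells, 35 (92.1%) held at least 5 corrected UMIs of both lists, against 31.4% of cluster 3, 61.9% of the T cell-like cluster, 5.49% of microglia and 0.602% of nonclassical monocytes. E had a median of 21343 raw UMIs, against 6534 in the T cell-like cluster, 14083 in microglia and 5952 in nonclassical monocytes. The part of depth in these shares was not tested. By surface class 20 of the 38 (52.6%) were Ly6C-high, 8 (21.1%) Ly6C-low and 8 (21.1%) CD3+ or NK1.1+. Shared droplets made up 73.7% of E.

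**Figure D2:**
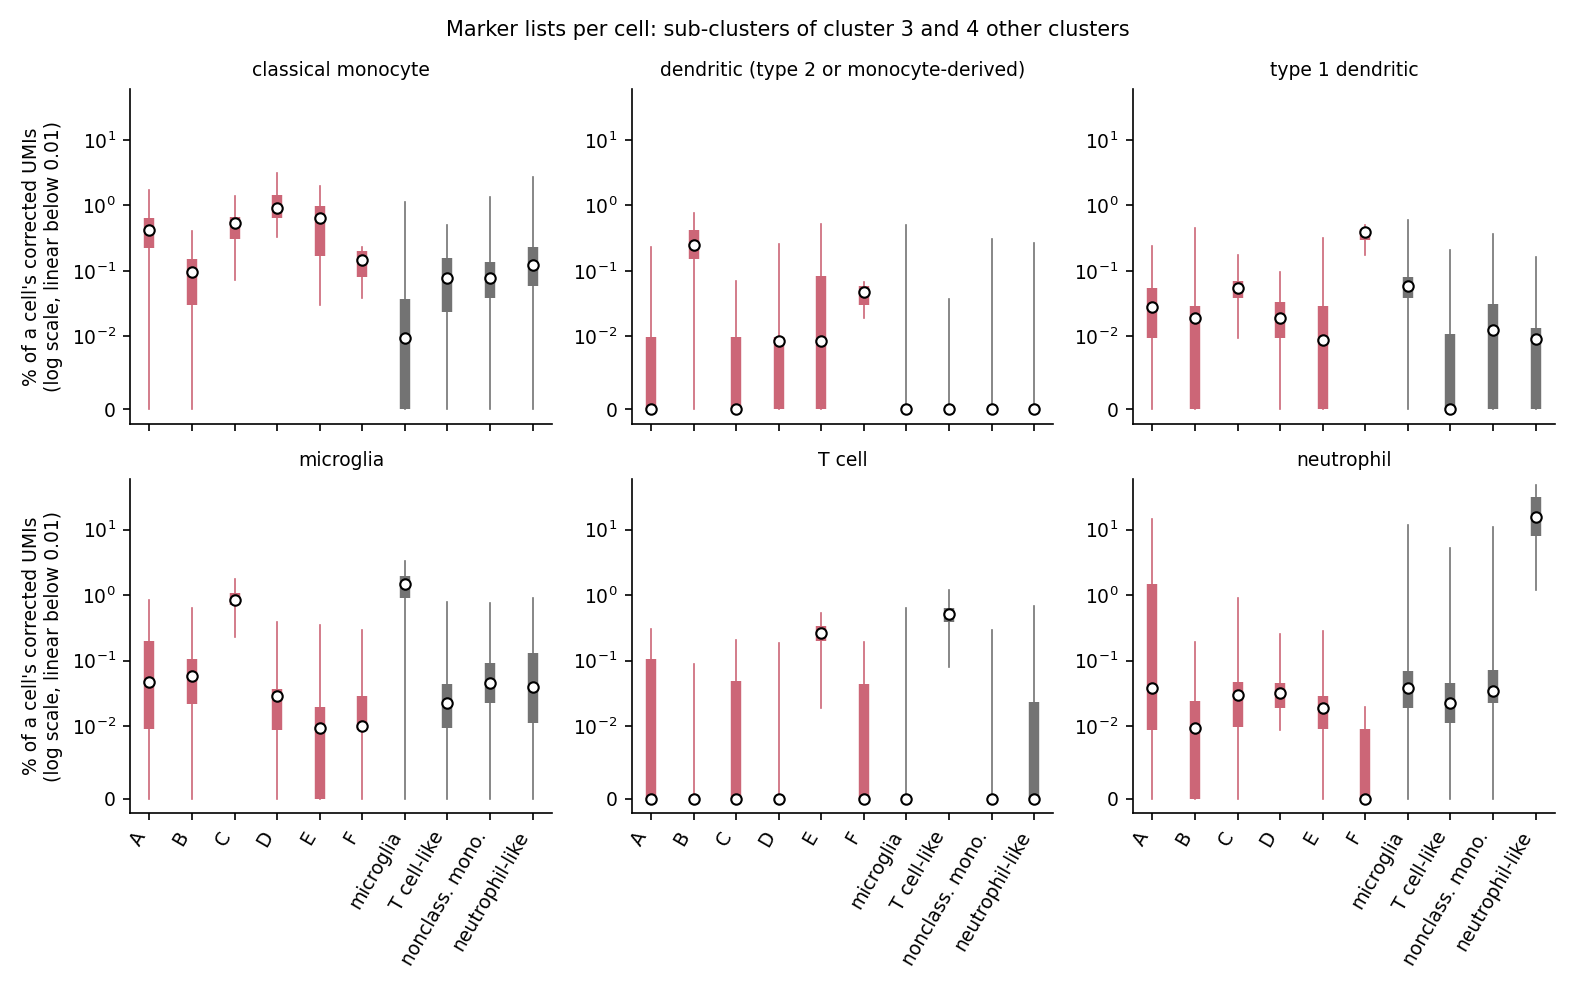
Percent of each cell's corrected UMIs taken by a marker list (vertical axis, 1 panel per list) in sub-clusters A to F and in the clusters named on the horizontal axis; circles are medians over cells, thick bars quartiles and thin lines the whole range, on a log scale that is linear below 0.01. The classical monocyte list is highest in D (median 0.925%), the microglia list stands apart in C (0.850%) and the T cell list in E (0.262%).

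The sub-clusters depended on shared droplets and on resolution. The 107 cells listed only in the naive brain gave 3 groups, led by Cd209a and Mgl2 (52 cells), by Cxcl9, Ms4a7 and S100a8 (34 cells), and by Chil3, Prtn3 and F13a1 (21 cells). At resolution 0.3 there were 4 groups, which merged 37 of the 38 cells of E with A and all of F with B. Droplets shared with the blood kept to some of its clusters: all 32 of A and all 11 of C lay in blood cluster 2, 11 of the 14 of D in blood cluster 3, and all 6 of E in blood cluster 5.

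The authors' surface classes, which come from antibodies and not from RNA, also divided cluster 3. Of its cells, 88 (31.1%) were CNS-native, 75 (26.5%) Ly6C-high, 60 (21.2%) Ly6C-low, 21 (7.42%) Ly6C+ Ly6G+, 18 (6.36%) B220+, 17 (6.01%) CD3+ or NK1.1+ and 4 (1.41%) CD11b-. Cluster 3 supplied 75 of the 150 cells of the Ly6C-high class in the naive brain (50%). In contrast, 90.6% of microglia were CNS-native, and 67.5% of nonclassical monocytes were Ly6C-low. Without shared droplets the Ly6C-low class was the largest of cluster 3, at 37.4%, with CNS-native at 31.8% and Ly6C-high at 18.7%.

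Against microglia, cluster 3 was higher in monocyte, antigen presentation and interferon genes and lower in the microglial genes. Ratios are log2 of CP10k with 0.1 added to both sides, over genes with at least 0.5 CP10k on at least 1 side, and a gene was called at 2-fold or more. Of 3480 genes measured, 407 (11.7%) were called higher and 402 (11.6%) lower, with a median of 0.05 over all. All 8 classical monocyte genes were called higher (median 3.24). The clusters were drawn from these same genes, so these counts describe cluster 3 and test nothing. Ly6c2, Ccr2, Ms4a4c and Chil3 of the classical monocyte list were also given to mark it. The labels were also unevenly spread: 686 microglia were labelled depleted and 134 control, against 172 and 111 cells of cluster 3. With cells labelled control only, 444 genes were called higher and 474 lower, and with cells labelled depleted only 381 and 400. The list medians against microglia pool both labels, and the part of the labels in them was not tested.

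The genes with the highest ratios included Plac8, a small cysteine-rich protein of monocytes, at 17.7 CP10k against 1.13 in microglia. Thbs1, the matrix protein thrombospondin 1, was at 4.12 against 0.154, Lgals3 (galectin 3) at 27.0 against 2.03, and F10 (clotting factor X) at 2.13 against 0.0769. Il1rn, the antagonist of the interleukin 1 receptor, was at 3.22 against 0.177. F10 and Thbs1 were not restricted to one state: outside B and F, each sub-cluster had at least 1.46 CP10k of F10 and 2.92 of Thbs1. Of the Ms4a family 6 of 6 measured genes were called higher, and of the C-type lectins 11 of 13.

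All 9 measured genes of the class II pathway were higher in cluster 3 than in microglia, 7 of them by 2-fold or more (median 1.69, and 2.07 without shared droplets). H2-Aa was at 44.7 CP10k against 10.2, H2-Eb1 at 42 against 9.57, and Cd74 at 116 against 29.2. Ciita, the coactivator that switches these genes on, was at 0.772 against 0.189. Inside cluster 3, H2-Aa was highest in the dendritic-like cells of B, at 122 CP10k.

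Interferon response genes were higher in 31 of 31, with 22 called (median 1.26). Isg15, a ubiquitin-like protein induced by interferon, was at 8.36 CP10k in cluster 3 and 1.37 in microglia, Irf7 (a transcription factor that amplifies the response) at 5.70 and 0.919, and Rsad2 (viperin, an antiviral enzyme) at 3.67 and 0.599. All 8 interferon-inducible GTPases were called higher (median 1.69), with Gbp2 at 4.30 against 0.282. Without shared droplets the median of the interferon list was 0.71.

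Chemokines were mostly higher, 12 of 15 with 10 called. Cxcl9, a ligand of the T cell receptor CXCR3, was at 7.42 against 0.326 CP10k, Cxcl10, another of its ligands, at 13.8 against 6.06, and Ccl7, a ligand of CCR2, at 4.19 against 0.669. Ccl12, Ccl3 and Ccl4 went the other way, with 4.46 against 12.7, 5.81 against 16.5 and 19.0 against 36.6 CP10k. Repair and matrix genes were higher in 9 of 9 (8 called, median 2.5).

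All 11 microglial genes were called lower (median −2.59). P2ry12 was at 1.28 CP10k against 9.42, and Tmem119, a membrane protein of microglia, at 1.07 against 7.19. The growth factor receptor Csf1r, which all 3 clusters transcribe, was at 5.29 against 18.1 CP10k. Of 10 macrophage genes, 6 were called lower, among them Apoe (44.5 against 128) and C1qa (21.3 against 83.4), and 2 were higher, including Ms4a7 (6.21 against 1.83). Inside cluster 3, P2ry12 was highest in C, at 6.49 CP10k.

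Short stretches of promoter are shown for genes of these lists because both lists are known for shared control elements. From RefSeq (GRCm38.p6), the 250 bases before the start of H2-Aa (chr17:34287824-34288073, minus strand) and H2-Eb1 (chr17:34305617-34305866, plus strand) hold the Y box in capitals, the CCAAT-containing element of class II promoters. The stretch before Isg15 (chr4:156200819-156201068, minus strand) holds overlapping matches to the core of the interferon-stimulated response element, also in capitals. Each is written 5′ to 3′ on the gene's strand.
H2-Aa: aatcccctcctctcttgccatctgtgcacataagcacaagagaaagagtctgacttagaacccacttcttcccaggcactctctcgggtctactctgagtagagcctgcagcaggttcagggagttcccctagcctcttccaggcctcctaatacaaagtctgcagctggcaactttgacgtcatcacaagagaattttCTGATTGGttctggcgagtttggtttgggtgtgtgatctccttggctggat
H2-Eb1: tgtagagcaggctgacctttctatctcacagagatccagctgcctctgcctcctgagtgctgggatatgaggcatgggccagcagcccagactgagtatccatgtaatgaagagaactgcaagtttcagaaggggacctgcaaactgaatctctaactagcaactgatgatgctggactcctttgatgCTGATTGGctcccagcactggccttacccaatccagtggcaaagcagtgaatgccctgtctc
Isg15: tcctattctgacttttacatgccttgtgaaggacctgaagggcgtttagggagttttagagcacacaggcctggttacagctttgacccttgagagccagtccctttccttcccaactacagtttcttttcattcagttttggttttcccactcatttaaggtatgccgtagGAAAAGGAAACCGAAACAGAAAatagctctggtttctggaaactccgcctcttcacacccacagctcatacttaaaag
The Y box was searched as CTGATTGG and the response element core as GAAA, any 2 bases, GAAA, on both strands of the 250 bases before and 50 after each start. The Y box was present in 4 of 8 class II genes and 1 of 25 interferon response genes with a sequence, against 1346 of 32851 promoters (4.10%). The response element core was present in 13 of 25 interferon response genes and 0 of 8 class II genes, against 3.44% of all promoters. The lists were counted by gene and the background by promoter, so these shares are in unlike units. A match describes letters only and does not show that a factor bound there.

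Against nonclassical monocytes, cluster 3 had less of the genes of vessel-patrolling cells and more of the class II, interferon and chemokine genes. Of 3323 genes measured, 411 (12.4%) were called higher and 315 (9.48%) lower, with a median of −0.17. The nonclassical monocyte genes were called lower in 11 of 11 (median −3.46). Nr4a1, the nuclear receptor these cells depend on, was at 5.21 CP10k against 18.8, and Ace, angiotensin-converting enzyme, at 0.189 against 3.31. Adgre4, an adhesion receptor, was at 0.357 against 5.4, Ear2, an eosinophil-type ribonuclease, at 0.594 against 8.03, and Spn, the sialoprotein CD43, at 0.573 against 5.44.

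The classical monocyte genes were higher in 8 of 8, with 7 called (median 3.24). They include Ly6c2, Ccr2, Ms4a4c and Chil3, which were given to mark cluster 3, so this count tests nothing. Plac8 was the nearest to equal of those quoted, at 17.7 against 8.82 CP10k. Genes shared by monocytes of both kinds showed smaller ratios: Lyz2, lysozyme, was at 109 against 79.4 CP10k, Csf2rb at 1.76 against 1.89, and S100a4 at 9.18 against 6.86. The transcription factors Cebpb and Klf4 were lower in cluster 3, at 11.5 against 41.3 and 2.63 against 7.60 CP10k.

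All 9 class II genes were called higher than in nonclassical monocytes (median 3.35), with H2-Aa at 44.7 against 2.19 CP10k and Ciita at 0.772 against 0.0343. Of 31 interferon response genes, 31 were higher and 30 called (median 2.83). Without shared droplets their median was 2.22. Chemokines were higher in 14 of 15 (11 called, median 3.16). Cxcl9 was at 7.42 against 0.0548 CP10k and Ccl7 at 4.19 against 0.0754. Outside the chemokine list, Spp1 was at 8.11 against 0.281.

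Microglial and T cell genes also exceeded nonclassical monocytes, in 8 of 8 (median 1.47) and 6 of 6 (median 2.55), all called. Sparc was at 3.97 against 1.41 CP10k. These lists were at their highest in C and E, and their part in the other differences was not tested. The interferon and chemokine comparisons have the same limit: 148 of the 166 nonclassical monocytes were labelled control, and cluster 3 was the deeper by its median UMIs. With cells labelled control only, the medians were 2.74 for class II and 3.21 for the interferon list.

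**Figure D3:**
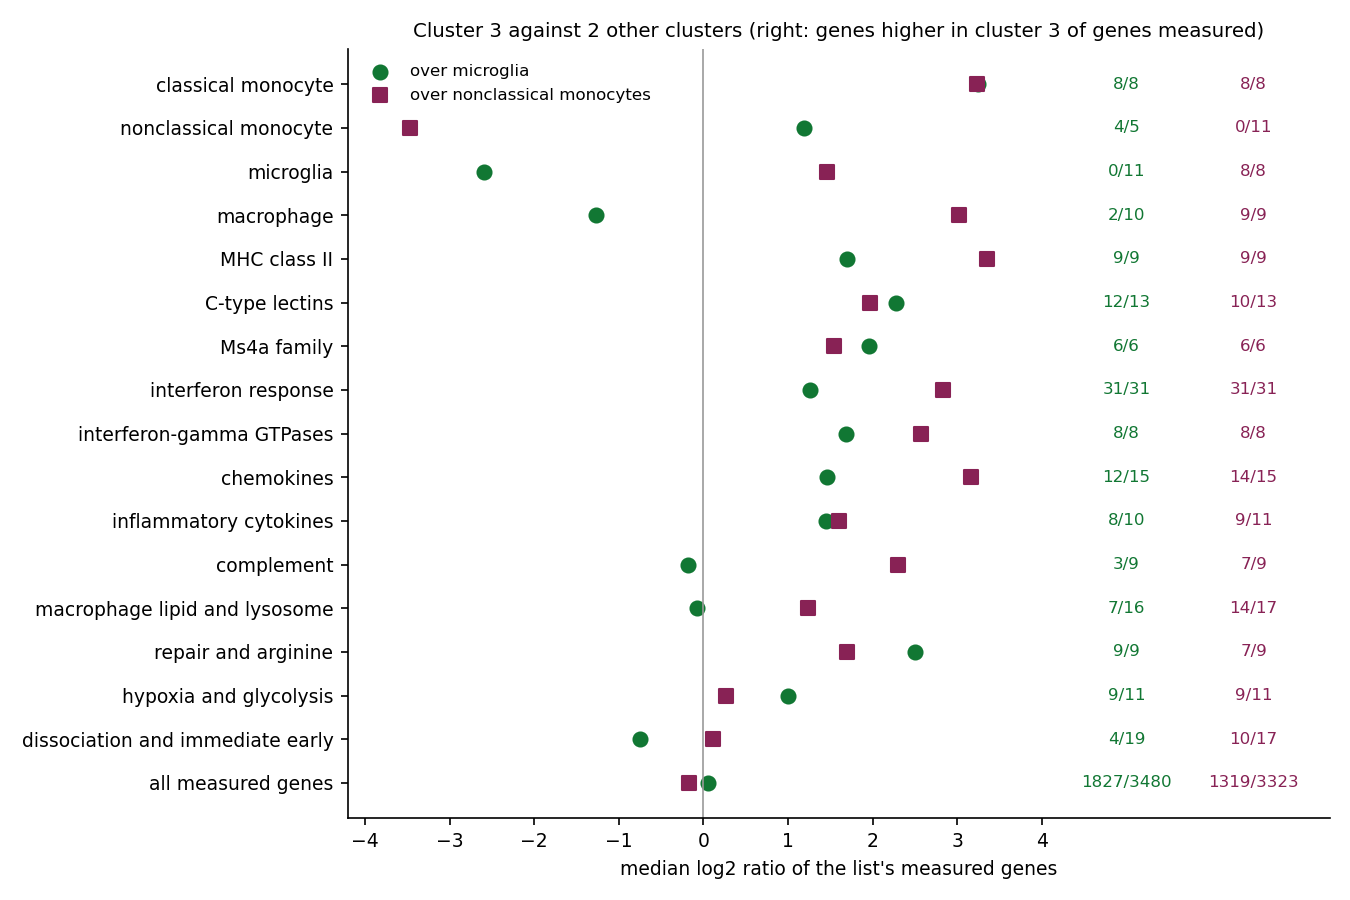
Median log2 ratio of each gene list in cluster 3 over microglia and over nonclassical monocytes (horizontal axis, log2 of CP10k with 0.1 added); each point is the median over the measured genes of a list, with no error bar, and the fractions give genes higher in cluster 3 of genes measured. The microglia list is at −2.59 against microglia and 1.47 against nonclassical monocytes, and the nonclassical monocyte list at −3.46 against nonclassical monocytes.

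Cluster 3 made up 111 of the 785 cells labelled control (14.1%) and 172 of the 1868 labelled depleted (9.21%), a ratio of 0.651 (interval 0.51 to 0.834). Without shared droplets the ratio was 0.632 (0.421 to 0.96). Among cells whose hashtag total was at or above the median of their arm, the shares were 9.67% and 11.2% and the ratio was 1.16 (0.795 to 1.73), so the direction reversed. Nonclassical monocytes were 18.9% of the cells labelled control and 0.964% of those labelled depleted. These are shares of the cells recovered, so they move with the numbers of all other cells.

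The composition of cluster 3 differed between the arms, mainly in A and B. A was 55 of the 111 cells labelled control (49.5%, interval 39.9 to 59.2%) and 40 of the 172 labelled depleted (23.3%, 17.2 to 30.3%). The cells of A labelled control had a median hashtag total of 53 counts and a median margin score of 1.21 between hashtags, against 1144 and 3.32 in those labelled depleted, and the part of this in the shares of A was not tested. B was 7 cells labelled control (6.31%, 2.57 to 12.6%) and 45 labelled depleted (26.2%, 19.8 to 33.4%). F had 1 cell labelled control (0.901%) and 10 labelled depleted (5.81%). C, D and E made up 13.5%, 18.0% and 11.7% of the cells labelled control and 17.4%, 12.8% and 14.5% of those labelled depleted, with overlapping intervals. Without shared droplets A was 13 of 40 cells labelled control (32.5%) and 5 of 67 labelled depleted (7.46%), and B was 4 of 40 (10%) and 36 of 67 (53.7%). C and E then turned direction, with C at 20% and 10.4% and E at 17.5% and 4.48%.

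**Figure D4:**
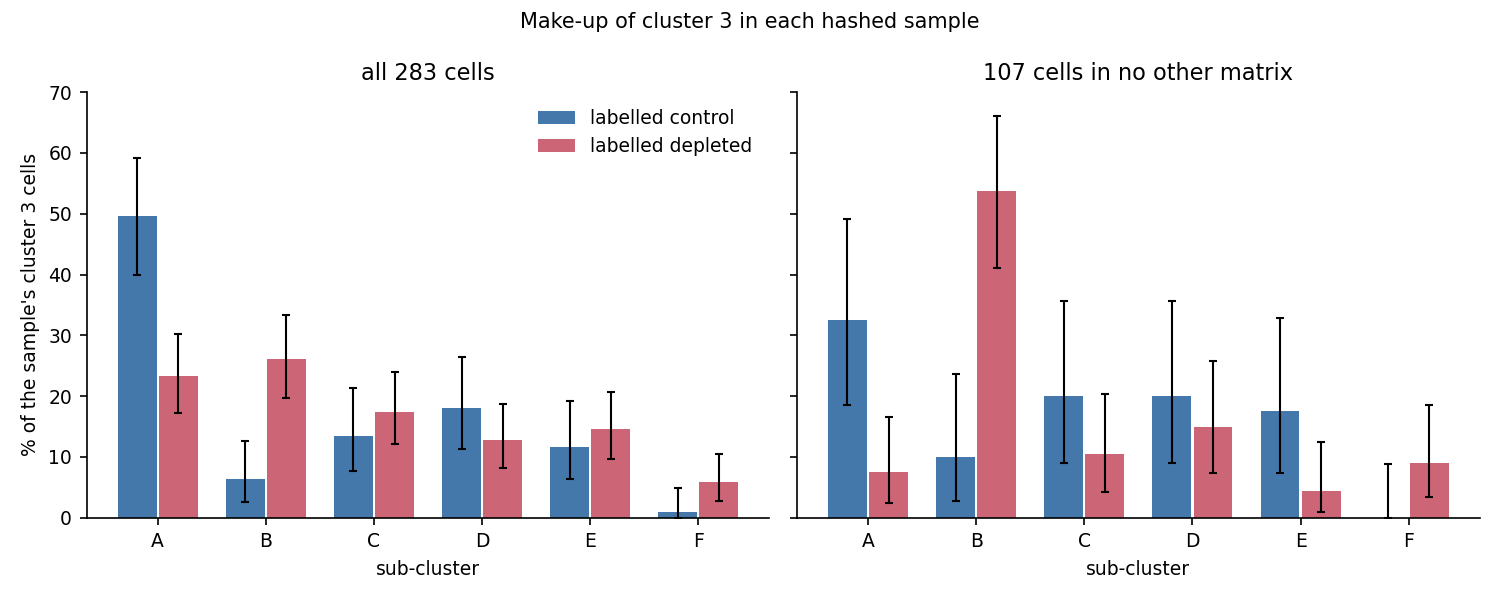
Share of the cells of cluster 3 in sub-clusters A to F (horizontal axis) in the samples labelled control and depleted, in percent, over all cells (left) and without shared droplets (right); error bars are Clopper-Pearson 95% intervals for counting error only. Over all cells A takes 49.5% and 23.3% and B 6.31% and 26.2%, and the intervals of each pair do not overlap.

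The Ly6C-low surface class differed in the same direction as B. It was 11.7% of cluster 3 in cells labelled control and 27.3% in cells labelled depleted, and 17.5% and 49.3% without shared droplets. Most cells of B are in this class, so the shares are not independent of each other.

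Over cluster 3 as a whole, class II genes and 4 of the C-type lectins were higher in cells labelled depleted, and neutrophil, interferon and chemokine genes were lower. Of 3103 genes measured, 14 (0.451%) were called higher in cells labelled depleted and 42 (1.35%) lower, with a median of −0.05. Without shared droplets, over 67 and 40 cells, 46 were called higher and 231 lower. As background for the counts of lower genes below, 1780 of the 3103 genes were lower over all cells. Without shared droplets 1989 of the 3103 were lower (median −0.16), and with sub-clusters A to E weighing the same 1544 were. Of 13 C-type lectins measured, 5 were higher, 4 of them called, and 8 were lower, 1 of them called (median −0.39, and −0.08 without shared droplets). Mgl2 was at 0.294 CP10k in cells labelled control and 3.00 in cells labelled depleted (0.579 and 6.48 without shared droplets), from 9 and 40 cells.

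Cd209a was at 0.916 CP10k in cells labelled control and 3.25 in cells labelled depleted, from 15 and 42 cells, and at 0.941 and 7.14 without shared droplets. Clec4b1 was at 0.311 and 1.05, and Clec10a, a galactose-binding lectin, at 0.449 and 1.09. All 3 were higher in the sample labelled depleted with and without shared droplets. With A to E weighing the same, none of the 3 was called, with ratios of 0.52 for Cd209a, 0.78 for Clec4b1 and 0.63 for Clec10a, and in A alone Cd209a was at −0.90. Mgl2 was still called in that setting of equal weights, with a ratio of 1.85 (0.604 and 2.45 CP10k). Klrd1, an NK cell receptor also found in B, was at 0.812 and 1.91. Cxcr6 and Nkg7 were called higher (1.2 and 1.1 on the log2 scale) but took ratios of −0.56 and −0.69 without shared droplets.

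The class II genes were higher in cells labelled depleted in 9 of 9, with 2 called (median 0.92, and 1.37 without shared droplets). H2-Aa was at 29.1 and 55 CP10k, Cd74 at 75.1 and 143, and H2-Eb1 at 25.5 and 53.0. Within sub-clusters the median was 0.85 in B (7 and 45 cells) and 0.10 in A (55 and 40 cells). With A to E weighing the same it was 0.48, and 8 of 9 genes were higher.

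The interferon response genes were lower in cells labelled depleted in 31 of 31, none by 2-fold (median −0.50, and −0.89 without shared droplets). Irf7 was at 8.13 CP10k in cells labelled control and 4.09 in cells labelled depleted, and Isg15 at 10.8 and 6.77. Within sub-clusters the direction was mixed: 27 of 31 genes were lower in A (median −0.36), and 28 of 31 were higher in E (median 0.47). With A to E weighing the same the median was −0.08, with 17 genes lower and 14 higher. The interferon-induced chemokine Cxcl9 was at 7.51 and 7.37 CP10k, and Cxcl10 at 15.6 and 12.7.

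The genes with the lowest ratios included neutrophil and inflammatory genes. G0s2, an inhibitor of fat breakdown abundant in neutrophils, was at 2.16 CP10k in cells labelled control and 0.154 in cells labelled depleted, from 19 and 8 cells. Hdc, the enzyme that makes histamine, was at 0.864 and 0.137, Thbs1 at 7.0 and 2.22, and Il6 at 1.35 and 0.387. S100a8 was at 23.8 and 8.02, and 13 of 14 listed genes of neutrophils were lower (8 called, median −1.09). Without shared droplets 14 of 14 were lower (median −2.96), and with A to E weighing the same 11 of 14 were (median −0.47). Prg4 and Ccl17 had ratios of −3.51 and −1.91, and 1 cell labelled control held 128 of 129 and 76 of 126 of their corrected UMIs.

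Genes for repair and macrophage function were lower in most cases. Of the repair genes 10 of 12 were lower in cells labelled depleted, 4 of them called (median −0.90, and −1.10 without shared droplets). With A to E weighing the same 8 of 12 were lower (median −0.41), and the medians within B and E were 0 and −0.002. The list includes Prg4, for which 1 cell labelled control held 128 of 129 corrected UMIs. Spp1, of the macrophage lipid and lysosome list, was at 13.2 CP10k in cells labelled control and 4.79 in cells labelled depleted. Spp1 was also higher than in microglia over all cells (8.11 against 3.74 CP10k), but its ratio to microglia was −1.1 without shared droplets. The macrophage genes were lower in 9 of 9 in cells labelled depleted (median −0.56, and −1.12 without shared droplets). With A to E weighing the same 6 of 9 were higher (median 0.06), and within E 9 of 9 were. Ccl7 was at 6.78 and 2.48 CP10k, and the 17 chemokines were all lower over all cells, 6 of them called (median −0.60). Without shared droplets 15 of 17 were lower (median −1.11), with A to E weighing the same 12 of 17 were (median −0.35), and within B and E 9 of 17 were higher. The classical monocyte genes were lower in 6 of 8 and higher in 2, none of them called (median −0.53, −0.85 without shared droplets and −0.08 with A to E weighing the same). Ly6c2 was at 9.89 and 6.47 CP10k, while Ccr2 was at 5.35 and 5.96 and Chil3 at 9.99 and 10.2.

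**Figure D5:**
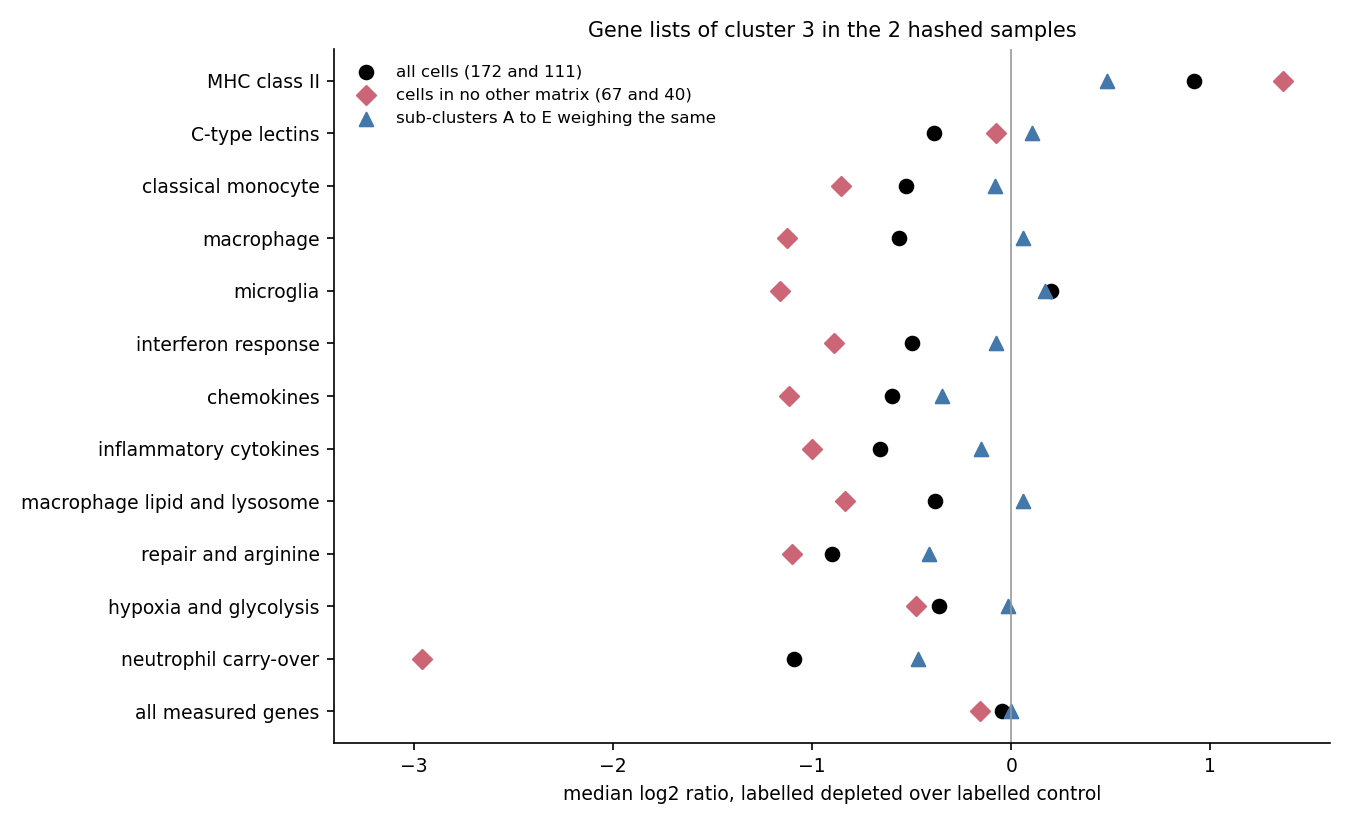
Median log2 ratio of each gene list in cluster 3, cells labelled depleted over cells labelled control (horizontal axis, log2 of CP10k with 0.1 added), with all cells, without shared droplets, and with sub-clusters A to E weighing the same; each point is the median over the measured genes of a list, with no error bar. The class II list is above 0 in all 3 settings (0.92, 1.37 and 0.48), and the interferon list is at −0.50, −0.89 and −0.08.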

How the data were processed

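The authors' deposited matrix of the naive brain holds natural log values of 1 plus SCTransform-corrected UMIs for 17129 genes and 2653 cells. Cell Ranger 3.1, Seurat 3.1.1 and the mm10 build are named in the submitters' processing notes. Exponentiating gave whole numbers (within 1e-06) whose sums equalled the deposited corrected counts in all 2653 cells. The deposited annotation also gives raw UMI, antibody and hashtag counts, the hashtag margin score, clusters, surface classes and arms; 13 of its columns were not used. No raw counts per gene were used, so no count model was run, and corrected UMIs carry no counting interval.

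Levels are sums of corrected UMIs per group of cells, scaled to 10000. Sub-clusters used the Leiden method in scanpy 1.11.5 (1000 variable genes, 15 components, 15 neighbours, resolution 0.5). Clusters other than 3, 0 and 4 were called T cell-like or neutrophil-like from their marker lists. Shares carry exact Clopper-Pearson 95% intervals (scipy 1.17.1). The ratio and sub-cluster steps were tested on simulated data. For the sub-cluster step, cells of equal depth were drawn from the profiles of the microglia, the T cell-like and the neutrophil-like cluster. No mixed droplets were simulated, so that step does not show how well A to F are separated. Promoters and gene positions came from RefSeq GRCm38.p6, the assembly of mm10. Named genes were members of listed gene groups, the 10 highest and lowest ratios of each comparison, and the 10 leading genes of each sub-cluster. Groups found at other settings were also described by their leading genes, among them Prtn3. The members and lists were chosen with earlier results of these data known.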

Additional observations from a re-analysis of the deposited data

How the results depend on the processing

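With 1 sample per arm no replicate could be left out, and no spread between animals is known. No paired analysis was possible because each arm is 1 sample and no result comes from a test. Counts of called genes depended on the pseudocount and the minimum. With a pseudocount of 1 CP10k they were 147 higher and 115 lower against microglia, 134 and 92 against nonclassical monocytes, and 3 and 8 between the arms. With a minimum of 1 CP10k, 264 were lower against microglia, 217 higher against nonclassical monocytes and 23 lower in cells labelled depleted. With no minimum these were 617 lower against microglia, 781 higher against nonclassical monocytes and 41 higher in cells labelled depleted. Between the arms, 46 were higher and 231 lower without shared droplets, 29 and 78 in the Ly6C surface classes alone, 43 higher in A alone, and 8 higher with A to E weighing the same (chosen after seeing the data). The share ratio of 1.16 among cells with higher hashtag totals was a reversal, and the cause was not tested. Without shared droplets, 18.7% of cluster 3 was Ly6C-high, 37.4% Ly6C-low and 3.74% Ly6C+ Ly6G+, and 3 sub-clusters were found.

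Some single genes reversed, and the causes were not tested. Against microglia, Spp1 was at −1.1 without shared droplets, and with cells labelled control only H2-DMb2 was at −0.11, Mcpt8 at 0.12, Hba-a1 at 1.20, Hba-a2 at 0.67 and Hbb-bs at 1.88. Against nonclassical monocytes labelled depleted (18 cells), Gpr34 was at −0.014, Hbb-bs at −0.54, Hspa1a at −0.33, Il10 at 0.65, Il4i1 at 1.1 and Siglech at −0.28. Between the arms, Cxcr6 was at −0.56 and Nkg7 at −0.69 without shared droplets. In the Ly6C surface classes Lcn2 was at 0.11, Nos2 at −0.30 and Prg4 at 0.14. In A alone Cd209a was at −0.90, H2-Eb1 at −0.057, Hbb-bs at 0.55 and Nos2 at −0.011.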

Other observations

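Of 9 complement genes, 3 were called higher in cluster 3 than in microglia and 6 were lower, 4 of them called (11.7% and 11.6% of all genes were called), and 7 were higher than in nonclassical monocytes. C3, the central component, was at 2.14 CP10k in cluster 3, 0.227 in microglia and 1.63 in nonclassical monocytes, and Cfb, which forms the alternative convertase with it, at 0.511, 0.022 and 0.123. C3ar1, a receptor for a cleaved fragment of C3, was at 2.23, 2.54 and 0.117 CP10k. C3 was at 3.73 CP10k in D and 0.115 in B. C3ar1 was highest in A, at 4.33.

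Immediate early genes, which respond to tissue dissociation, were mostly lower in cluster 3 than in microglia. Jun was at 12.8 CP10k against 58.9 and Egr1 at 8.47 against 22.6, and 8 of 19 listed genes were called lower while 4 of 19 were higher. The regulators of class II and dendritic cells varied inside cluster 3: Irf4 was at 0.611 CP10k in B and 0.03 in A, and Flt3 at 1.68 in F. The border-associated macrophage genes did not all peak in the same sub-cluster. Pf4 and Folr2 were highest in A, at 4.24 and 0.66 CP10k, while F13a1, of the same list, was a leading gene of D, at 7.83. Pf4 was at 2.77 CP10k in cells of cluster 3 labelled control and 1.01 in those labelled depleted.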
